A study of Mus musculus with 6 samples.

Results

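The cells described here are arachnoid-like cells found among tdTomato-sorted cells of 3 mouse brain libraries. They were 282 of 7056 brain cells that passed the cell filters, out of 37323 cells in all 6 libraries of the study. A brain cell was taken as arachnoid-like when it held a unique molecular identifier (UMI, a tag that marks 1 captured RNA molecule) of at least 2 of the 5 genes Slc47a1, Aldh1a2, Crabp2, Dpp4 and Wnt6 and no UMI of Cdh5, Ptprc or Kcnj8, which mark endothelial cells, leukocytes and pericytes. Members were thus chosen by detected UMIs of these genes. This gave 60 cells in the infarct library, 123 in the peri-infarct library and 99 in the sham library. They were set beside 103 brain fibroblasts (37, 26 and 40 cells in the same order of libraries), which held UMIs of Col1a2 and Dcn, none of the 5 marker genes and none of the 3 excluding genes.

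All mice were Tbx18CreER/+;Rosa26tdT/+, so that tamoxifen made cells with an active Tbx18 gene, and their descendants, express the red protein tdTomato. Tamoxifen was injected into the peritoneum for 4 days and a week of washout followed. Cortical tissue came from the necrotic infarct core after photothrombotic (PT) stroke, in which light and a dye clot surface vessels, from the peri-infarct area after the same injury, or from brain after sham surgery, 1 library each. The study asked whether pericytes show a parallel pro-fibrotic response in heart and brain. The labels give no age, no time after injury and no number of animals in a library, so no difference between libraries has a replicate check, and no p-value is given. Only cells that carried the tdTomato mark and survived the sort were counted, and shares below are shares of those cells.

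The arachnoid is the middle of the meninges, the membranes around the brain. Its outer barrier layer is joined by tight junctions and carries pumps and carriers that keep solutes of the dura out of the cerebrospinal fluid, while the inner arachnoid and the pia hold fibroblast-like cells that secrete retinoic acid, prostaglandin D synthase and collagen. In the adult meninges Slc47a1, an exporter of organic cations, is known from arachnoid fibroblasts, Aldh1a2 makes retinoic acid, Crabp2 carries it to its receptors, Dpp4 is a surface peptidase and Wnt6 is a secreted Wnt ligand.

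The libraries differed in depth. The infarct library held 54810989 UMIs over 2368 barcodes, the peri-infarct library 11796570 over 2589 and the sham library 12311632 over 2808. The median arachnoid-like cell held 31853, 7310 and 7246 UMIs in the infarct, peri-infarct and sham libraries, and the summed UMIs of the class were 1835278, 1039832 and 791873. The libraries also differed in sex-linked RNA: Xist, made from the inactive X chromosome of females, was at 353 and 459 UMIs per 1000000 of the class (CPM) in infarct and peri-infarct arachnoid-like cells, against 1.26 CPM in sham cells. The Y-linked gene Ddx3y was at 14.7 and 23.1 CPM in infarct and peri-infarct cells, against 82.1 CPM in sham cells, so that injury and the sex of the animals cannot be told apart. Of the kept cells, 13 barcodes were shared by infarct and peri-infarct, 8 by infarct and sham and 7 by peri-infarct and sham, and 1 barcode belonged to arachnoid-like cells of both infarct and sham.

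Checked against markers of the arachnoid barrier, the name held in part. Cldn11, a tight junction protein, was at 113, 239 and 332 CPM in infarct, peri-infarct and sham arachnoid-like cells, against 58.5, 177 and 38.2 CPM in fibroblasts. Cdh1, the E-cadherin of barrier cells, was at 12.5, 50.01 and 125 CPM in arachnoid-like cells, against 0, 9.34 and 15.3 CPM in fibroblasts. The keratin genes Krt8 and Krt18 were at or near 0 in all 3 libraries, with a highest value of 0.962 CPM. The infarct cells stood apart: Slc47a1 itself was at 32.7 CPM there, against 493 in peri-infarct and 529 in sham cells, and Col1a1, the main fibrillar collagen, was at 8354 CPM, against 1075 and 1203. Results that rest on the infarct library are therefore given with and without it.

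Genes of neighbouring meningeal fibroblasts were abundant in the class and, for the inner arachnoid or pial list, in brain fibroblasts as well. Markers of inner arachnoid or pial fibroblasts summed to 5429, 50376 and 31023 CPM in infarct, peri-infarct and sham arachnoid-like cells. In fibroblasts they summed to 3826, 49879.5 and 47458 CPM. Ptgds alone gave 2117, 49077 and 29998.5 CPM of the sums in arachnoid-like cells, and was at 17.2, 44763 and 42162 CPM in fibroblasts. Dural fibroblast markers summed to 8001, 10027 and 9383 CPM in arachnoid-like cells, of which Mgp alone gave 6688, 7356 and 7256 CPM. In fibroblasts the dural markers summed to 8845, 1923 and 1781 CPM. The dural marker Dpt was at 0 in all 3 libraries. General fibroblast markers summed to 17410, 3559 and 3950.1 CPM in arachnoid-like cells, against 17964, 7871 and 8108 CPM in fibroblasts. That list includes Col1a2 and Dcn, by which the fibroblasts were chosen. Markers of the arachnoid barrier layer summed to 249.6, 732 and 1222 CPM in arachnoid-like cells, with Krt18 at 0 in all 3 libraries. The barrier list includes Dpp4, a gene of the rule, at 3.27, 14.4 and 58.1 CPM in these cells. In arachnoid-like cells smooth muscle markers summed to 1770.3, 89.4 and 591 CPM and astrocyte markers to 233, 585 and 567 CPM, with Aqp4 at 0 in all 3 libraries.

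The summed level of 5 macrophage and microglia genes was 97.5, 0.962 and 1.26 CPM in infarct, peri-infarct and sham arachnoid-like cells. Of the endothelial list, 3, 2 and 4 of 5 genes were detected, summing to 3.81, 16.3 and 49.3 CPM. For pericytes, 5 of 6 genes were detected in each library, summing to 100.3, 664 and 804 CPM. The macrophage, endothelial and pericyte lists include Ptprc, Cdh5 and Kcnj8, which the rule itself set to 0 in these cells. The 3 neuronal genes summed to at most 0.962 CPM, and the 3 ependymal genes were at 0 in all 3 libraries.

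One gene group set the cells with a Slc47a1 UMI apart from those without one in each library: the major histocompatibility complex (MHC) class II genes, which encode the surface proteins that present peptides to helper T cells. Their promoters are known for an X box and a Y box that recruit the factors through which CIITA, the class II transactivator, acts. The 150 bases before the RefSeq start of 3 of these genes are shown as background to the values below. A link between these bases and the levels was not tested. Bases are from GRCm38.p6, the RefSeq form of the mm10 build, and run 5′ to 3′ on the strand of the gene. Capitals mark the letters GCAAC, the core of the X box, and ATTGG, the core of the Y box.
H2-Aa, chr17:34287824-34287973, minus strand: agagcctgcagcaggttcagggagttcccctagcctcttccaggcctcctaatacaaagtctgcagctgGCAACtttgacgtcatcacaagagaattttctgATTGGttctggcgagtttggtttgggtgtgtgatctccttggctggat
H2-Eb1, chr17:34305717-34305866, plus strand: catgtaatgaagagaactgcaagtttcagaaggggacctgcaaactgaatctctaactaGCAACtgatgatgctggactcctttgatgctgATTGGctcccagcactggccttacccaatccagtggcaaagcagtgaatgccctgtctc
H2-DMb1, chr17:34153041-34153190, plus strand: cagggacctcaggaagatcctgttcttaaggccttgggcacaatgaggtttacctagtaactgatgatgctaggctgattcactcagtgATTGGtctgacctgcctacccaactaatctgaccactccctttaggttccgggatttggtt
H2-Aa, which encodes the alpha chain of I-A, held both cores with 28 bases between them, and H2-Eb1, the beta chain of I-E, held both with 27 bases between them. The ATTGG of H2-Aa began 48 bases before the start, that of H2-Eb1 59 bases and that of H2-DMb1, part of the peptide-loading H2-DM, 61 bases. No exact GCAAC was in the window of H2-DMb1. Variants of these letters were not searched, so an X box with another core would be missed. Over the same windows of all 32851 RefSeq promoters in the table, both strands counted, GCAAC was in 19.6%, ATTGG in 24.5%, and GCAAC followed by ATTGG after 20 to 30 bases in 0.323%. These matches describe letters and not binding.

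Under the rule, arachnoid-like cells made up 2.90% (95% interval 2.22 to 3.71) of infarct cells, 5.26% (4.39 to 6.24) of peri-infarct cells and 3.74% (3.05 to 4.54) of sham cells. The intervals are exact Clopper-Pearson intervals and, like all intervals here, cover counting error only. Because deeper cells show more genes, each cell was also thinned to 1000 UMIs. The shares were then 0.838% (17 of 2028 cells) in infarct, 3.14% (72 of 2291) in peri-infarct and 2.11% (55 of 2602) in sham, and the infarct interval (0.489 to 1.34) lay below that of sham (1.60 to 2.74). The peri-infarct interval (2.47 to 3.94) overlapped that of sham. The order of infarct and peri-infarct against sham was the same before and after thinning. With at most 5% mitochondrial UMIs it was lost, at 2.84% in infarct, 2.48% in peri-infarct and 2.47% in sham.

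**Figure D1:**
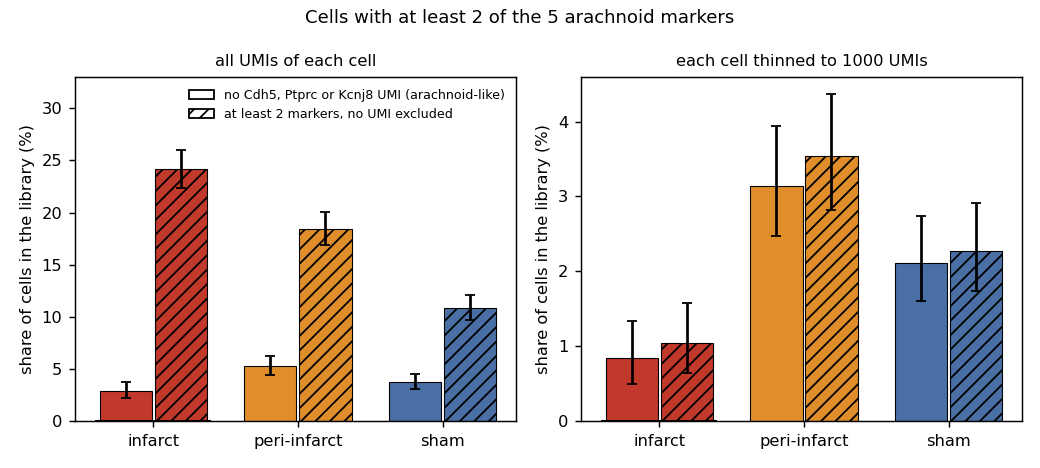
Share of kept cells in each brain library, in percent, that held at least 2 of the 5 markers, as arachnoid-like cells (plain bars) and with no UMI excluded (hatched bars), with all UMIs (left) and each cell thinned to 1000 UMIs (right). Error bars are exact 95% intervals for counting error, with 1 library per group. The infarct library is highest for hatched bars on the left, at 24.1%, and lowest on the right, at 0.838% for plain bars, against 2.11% in sham.

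The absence of Cdh5, the cadherin of endothelial junctions, removed most cells that carried the markers. Without the 3 excluding genes, cells with at least 2 markers numbered 500 of 2071 in infarct, 431 of 2339 in peri-infarct and 288 of 2646 in sham, or 24.1%, 18.4% and 10.9%. Of these, 437, 306 and 185 cells held a Cdh5 UMI, and 10, 14 and 7 of those with Cdh5 held a UMI of the endothelial genes Pecam1 or Cldn5. All 5 genes of the endothelial list, Flt1 and Kdr included, were detected in the cells set aside for Cdh5 alone and summed to 110.3, 241 and 254 CPM. That list includes Cdh5, which these cells held by choice, so part of each sum was fixed by the rule. The cells set aside for Cdh5 alone differed from the arachnoid-like cells by at least 2-fold in 30 of 2778 genes (1.08%) in infarct, 24 of 3054 (0.786%) in peri-infarct and 10 of 3425 (0.292%) in sham. After thinning to 1000 UMIs, Cdh5 was in 23.7% of infarct, 15.5% of peri-infarct and 15% of sham cells with a Slc47a1 UMI, against 0.322%, 1.89% and 1.33% of cells with a Kcnj8 UMI. Thinned cells with at least 2 markers and Slc47a1 held Cdh5 in 15.97% of infarct, 14.55% of peri-infarct and 15.03% of sham. In those without Slc47a1 the shares were 8.43%, 13.9% and 14.7%. The 3 excluding genes also removed most fibroblasts. These numbered 261, 77 and 99 without the exclusion, against 37, 26 and 40 with it. Whether the arachnoid-like cells lack Cdh5 or it was missed in them was not tested, and the comparisons between libraries below are also given for all cells with Slc47a1 and at least 1 other marker.

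RNA free in the droplets can place a marker UMI in cells that do not make it. Among endothelial cells (Cdh5 and Pecam1 UMIs), 2 or more markers were found in 5.38% of infarct, 1.80% of peri-infarct and 1.72% of sham cells, at median depths of 5757, 3708.5 and 4141 UMIs. Among cells with a Kcnj8 UMI the shares were 3.59%, 1.15% and 0.694%, at median depths of 3379, 2223 and 2974 UMIs. Counted the same way, with no exclusion, the shares of all cells given above (24.1%, 18.4% and 10.9%) were higher than these in each library, at median depths of 26159, 2944 and 3374 UMIs. In infarct the depths thus differed widely, and the part of free RNA was not tested.

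The 5 markers did not occur as 1 set. In peri-infarct 69 of 123 cells held Slc47a1 and Crabp2 alone, and 21 held Aldh1a2, Crabp2 and Wnt6. In sham 44 of 99 cells held Slc47a1 and Crabp2 alone, 10 held Aldh1a2, Crabp2 and Wnt6, and 9 held Slc47a1, Crabp2 and Dpp4. In infarct the commonest pair was Crabp2 and Wnt6, in 23 of 60 cells, and Slc47a1 and Crabp2 came next with 10. Exactly 2 markers were found in 51, 91 and 64 cells of the infarct, peri-infarct and sham libraries. Just outside the threshold lay 113, 77 and 87 cells with 1 marker, in which Mgp was at 5587, 5302 and 2702 CPM, against 6688, 7356 and 7256 CPM in the arachnoid-like cells.

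Slc47a1 and Aldh1a2 seldom shared a cell, so the class was described in a pair of subsets, a division made after the values were seen. The cells with a Slc47a1 UMI numbered 12, 81 and 66 in infarct, peri-infarct and sham, and those without numbered 48, 42 and 33. Aldh1a2 was found in 0 of 12 infarct, 2 of 81 peri-infarct and 6 of 66 sham cells with Slc47a1. Among cells without Slc47a1 it was found in 22 of 48, 38 of 42 and 25 of 33. The way cells were chosen forces part of this, since a cell without Slc47a1 needs a pair from the other 4 markers. Slc6a13, a GABA and taurine carrier of pial and inner arachnoid fibroblasts that the rule did not use, was at 0, 3.74 and 11.6 CPM in infarct, peri-infarct and sham cells with Slc47a1, against 52.5, 1248 and 1250.03 CPM in cells without it.

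A difference seen in single cells was that of Mgp, the matrix Gla protein that inhibits calcification, and Ptgds, the prostaglandin D synthase of cerebrospinal fluid. Each UMI counts 1 molecule from its 3′ end, so that the genes can be set side by side without a length term. In peri-infarct, Mgp exceeded Ptgds in 52 of 81 cells with Slc47a1, against 0 of 42 cells without it. In sham it did so in 48 of 66 cells with Slc47a1, against 4 of 33 without. The median cell with Slc47a1 held Mgp at 9022, 9039 and 8773 CPM in infarct, peri-infarct and sham and Ptgds at 428, 1287 and 1757 CPM. The median cell without Slc47a1 held Ptgds at 145175 CPM in peri-infarct and 50898 CPM in sham, and Mgp at 0 in both. The infarct cells without Slc47a1 did not follow: Mgp exceeded Ptgds in 40 of 48 of them, and their median Ptgds was 0.

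**Figure D2:**
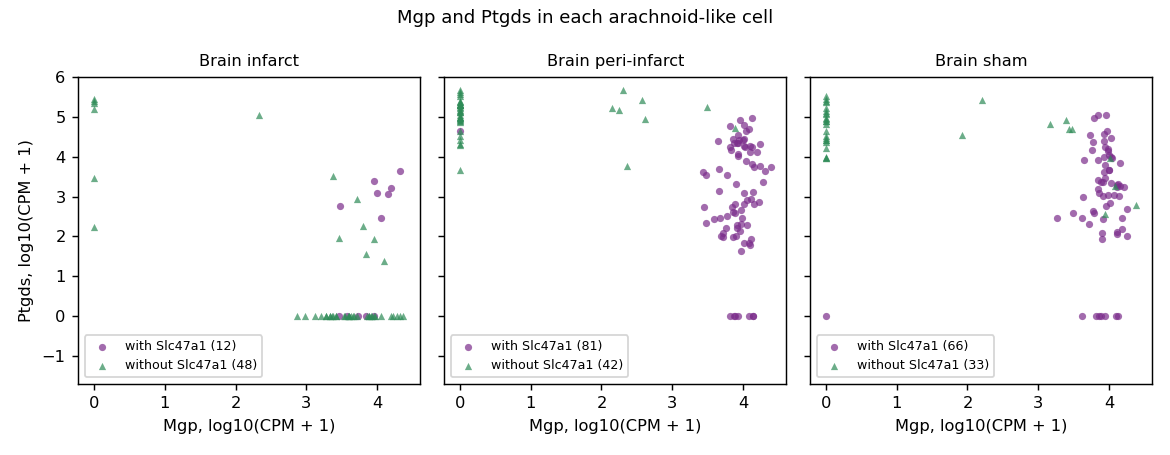
Mgp against Ptgds in every arachnoid-like cell, as log10 of CPM plus 1 of the cell, by library, with cells that held a Slc47a1 UMI and cells that did not as separate points. In peri-infarct all 42 cells without Slc47a1 have more Ptgds than Mgp, while 52 of the 81 cells with Slc47a1 have more Mgp.

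Summed over cells, the subset with Slc47a1 was rich in a set of secreted and membrane proteins. Penk, the precursor of enkephalin peptides, was at 1251, 1101 and 619 CPM in infarct, peri-infarct and sham cells with Slc47a1, against 44.8, 4.22 and 5.27 CPM in cells without it. Igfbp6, a binding protein of insulin-like growth factor 2, was at 927, 1921 and 1873 CPM with Slc47a1, against 199, 131 and 469 CPM without. Fxyd5, a regulator of the sodium pump, was at 1616, 2679.9 and 1870 CPM with Slc47a1, against 621, 59.0 and 105 CPM without. All 3 genes were higher with Slc47a1 in each library, infarct included. Igfbp6 was 4.67-fold (95% Poisson interval 3.94 to 5.53), 14.7-fold (10.3 to 21.7) and 3.99-fold (3.21 to 5.01) higher in infarct, peri-infarct and sham.

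Of 2750 genes at a mean of at least 50 CPM, 249 (9.05%) were at least 2-fold higher with Slc47a1 than without in both peri-infarct and sham, and 173 (6.29%) at least 2-fold lower. With the infarct library added as a requirement, 98 (4.39%) were higher and 17 (0.762%) lower of 2232. Folds were taken on CPM plus 1. Since the subsets were cut by the readout, the counts describe them and test nothing. In peri-infarct, trimmed-mean (TMM) scaling moved all log2 ratios down by 0.22, and the share of called genes that were higher was 52.7% with TMM, against 68.4% with CPM. In infarct the shift was -0.19 and the share 53.5% with TMM, against 72.8% with CPM.

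The transporter list was divided between the subsets. Of 23 transporter genes considered, 11 were higher with Slc47a1 in both peri-infarct and sham and 10 were lower. Over all genes, 9.05% were higher and 6.29% lower. Among the higher ones, the bicarbonate carrier Slc4a10 was at 233, 690 and 882 CPM with Slc47a1 in infarct, peri-infarct and sham, against 20.5, 0 and 42.2 CPM without, and the drug pump Abcb1a at 197, 310.2 and 510 CPM, against 49.96, 8.43 and 153 CPM. Slc4a10 was at least 54.6-fold higher with Slc47a1 in peri-infarct, set against a floor of 3 UMIs over the cells without it, which had none. Among the lower ones, the cystine carrier Slc7a11 was at 0, 16.2 and 28.2 CPM with Slc47a1, against 71.7, 1729 and 1646 CPM without, and the glutamate carrier Slc1a3 at 7.30, 2.49 and 1.66 CPM, against 55.1, 683 and 791 CPM. The organic anion carrier Slc22a6 was at 3.65, 6.23 and 14.9 CPM with Slc47a1, against 36.5, 839 and 543 CPM without. The floor of 3 UMIs over the cells with Slc47a1 was 10.9, 3.74 and 4.98 CPM in infarct, peri-infarct and sham. With Slc47a1, Slc1a3 lay below this floor in each library, and Slc7a11 and Slc22a6 did so in infarct. The direction of both sets of carriers was the same under TMM scaling in peri-infarct and sham, with 11 higher in each library and 12 and 10 lower.

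**Figure D3:**
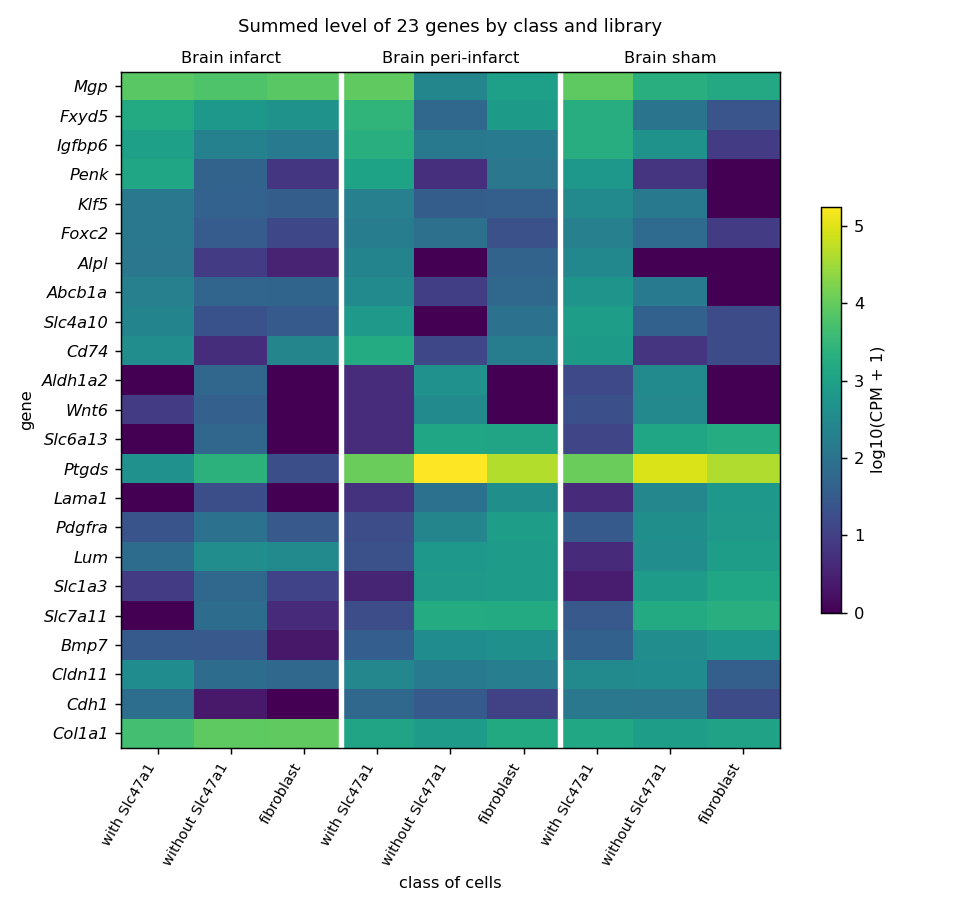
Summed level of 23 genes, as log10 of CPM plus 1 in color, in arachnoid-like cells with and without a Slc47a1 UMI and in fibroblasts of the infarct, peri-infarct and sham libraries, 1 library per block of columns. Penk, Igfbp6 and Slc4a10 are higher with Slc47a1 than without in all 3 blocks, and Slc6a13 is higher without it, at 1248 and 1250.03 CPM in peri-infarct and sham. In infarct, Col1a1 is among the brightest rows in every class.

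Fibroblast lists followed the same division. Of 10 dural fibroblast genes, 7 were higher with Slc47a1 in both peri-infarct and sham and 3 lower. Of 12 pial and perivascular fibroblast genes, 1 was higher and 9 lower. The shares over all genes were 9.05% higher and 6.29% lower. Lum, a collagen-binding proteoglycan, was at 69.3, 18.7 and 3.32 CPM with Slc47a1 in infarct, peri-infarct and sham, against 365, 637 and 374 CPM without. Pdgfra, the growth factor receptor that marks fibroblasts, was at 21.9, 16.2 and 29.9 CPM, against 92.2, 245 and 406 CPM. Alpl, an alkaline phosphatase of the dural list, was at 120.4, 235 and 277 CPM with Slc47a1, against 7.05, 0 and 0 CPM without.

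Among signalling genes, Bmp7 was at 36.1 and 41.5 CPM in peri-infarct and sham cells with Slc47a1, against 354 and 369 CPM without, and the Wnt ligand Wnt4 at 2.49 and 3.32 CPM, against 443 and 253 CPM. Rspo3, a secreted enhancer of Wnt signalling, was at 372, 815 and 985 CPM with Slc47a1 in infarct, peri-infarct and sham, against 55.1, 21.1 and 153 CPM without. Of the retinoid list, 0 of 9 genes were higher and 4 lower in both peri-infarct and sham, beside 9.05% higher and 6.29% lower over all genes, among them Cyp26b1, which degrades retinoic acid, at 0 and 1.66 CPM with Slc47a1, against 181 and 195 CPM without. Against the same shares, the meningeal transcription factors were mixed, with 6 of 19 higher (Foxp1, Foxp2, Klf5, Prrx2, Six2 and Twist1) and 3 lower (Osr1, Zic2 and Zic5). Cldn11 did not separate the subsets in sham, at 325 CPM with Slc47a1 against 353 CPM without.

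The class II genes, whose promoters are printed above, were detected in the cells with Slc47a1 in every library. Cd74, the invariant chain that escorts class II proteins, was at 379, 1661 and 741 CPM in infarct, peri-infarct and sham arachnoid-like cells with Slc47a1, against 3.84, 12.6 and 5.27 CPM in those without. It was found in 6 of 12, 61 of 81 and 39 of 66 cells with Slc47a1, against 4 of 48, 3 of 42 and 1 of 33 cells without. In peri-infarct the ratio was 131 (44.8 to 637). The larger set of cells with at least 2 markers and no exclusion gave the same order: Cd74 was at 488, 1401 and 867 CPM in 144, 330 and 193 cells with Slc47a1, against 23.01, 4.72 and 1.60 CPM in 356, 101 and 95 cells without.

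The order was the same at equal depth. After thinning to 1000 UMIs, Cd74 was in 38 of 144 infarct, 167 of 330 peri-infarct and 68 of 193 sham cells with Slc47a1, against 4 of 356, 2 of 101 and 0 of 95 cells without, where 0 of 95 allows a share of cells with a UMI at this depth of up to 3.81%. Thinned endothelial cells held Cd74 in 1 of 93, 1 of 278 and 2 of 289. The other genes followed Cd74 in the larger set: H2-Eb1 was at 139.6, 344 and 276 CPM in infarct, peri-infarct and sham cells with Slc47a1, against 10.5, 0 and 1.60 CPM without, and H2-Aa at 113, 266 and 233 CPM, against 6.42, 0 and 3.20 CPM. H2-DMb1 was at 112, 195 and 179 CPM, against 11.1, 4.72 and 6.40 CPM. Ciita itself was found in 4, 18 and 6 cells with Slc47a1, against 1, 0 and 0 cells without.

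Macrophages also make class II RNA, and the part of macrophage RNA in the class II levels was not tested. In the larger set with Slc47a1, Csf1r, the receptor that macrophages need, was at 0.518, 0 and 0 CPM and Ptprc at 0, 0.747 and 0 CPM in infarct, peri-infarct and sham. Tyrobp, a myeloid adaptor, was at 2.33, 9.71 and 0.458 CPM with Slc47a1, against 15.04, 18.9 and 0 CPM without. The macrophage gene Lyz2 was at 14.0, 2.99 and 0.458 CPM with Slc47a1, against 77.1, 37.8 and 1.60 CPM without. It was found in 26 of 144, 9 of 330 and 1 of 193 cells with Slc47a1. C1qa, a complement gene of macrophages, was at 2.33, 1.49 and 0.458 CPM with Slc47a1, against 21.8, 31.5 and 3.20 CPM without. Fibroblasts held Cd74 at 242, 159 and 15.3 CPM, from 8 of 37, 2 of 26 and 2 of 40 cells, alongside Lyz2 at 328, 9.34 and 1337 CPM. H2-Eb1 was at 112, 74.7 and 0 CPM in fibroblasts, from 3 of 37, 2 of 26 and 0 of 40 cells. H2-Aa was at 88.3, 37.3 and 0 CPM there, from 1 of 37, 2 of 26 and 0 of 40 cells. In infarct arachnoid-like cells with Slc47a1, H2-Eb1 and H2-Aa were at 102 and 109 CPM, from 4 and 6 of 12 cells. In infarct the summed levels of these 2 genes were thus close to those of fibroblasts.

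**Figure D4:**
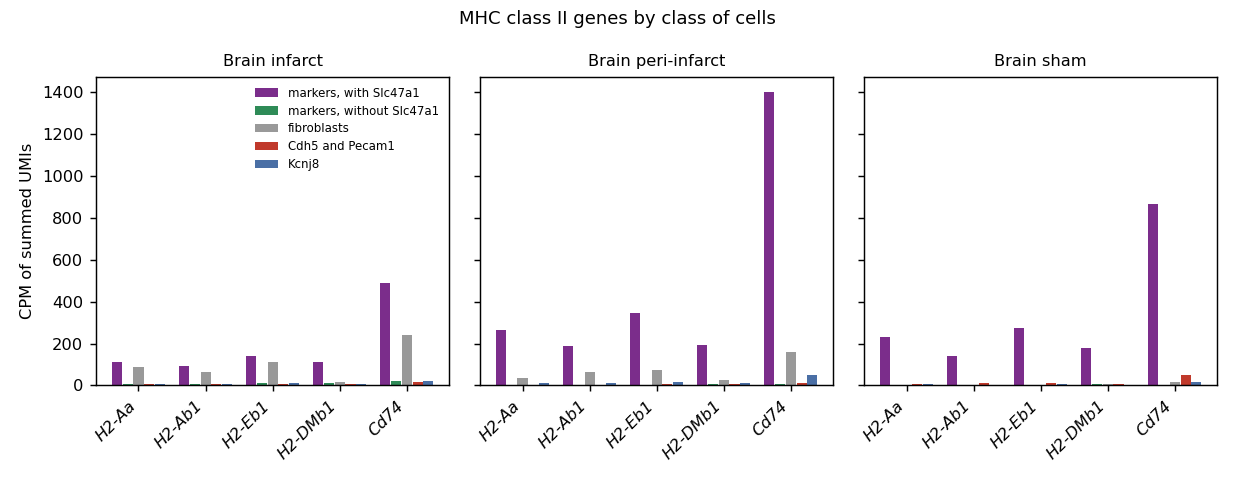
Summed level of 5 MHC class II genes, in CPM, in cells with at least 2 markers with and without Slc47a1 (no UMI excluded), fibroblasts, endothelial cells (Cdh5 and Pecam1 UMIs) and cells with a Kcnj8 UMI, by library, 1 library per panel. Cd74 stands at 488, 1401 and 867 CPM in infarct, peri-infarct and sham cells with Slc47a1, above each other class of the same library.

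Set against brain fibroblasts, the class as a whole had transporter genes that differed in both directions in peri-infarct and sham. Most basement membrane genes were lower than in these fibroblasts, which also carried pericyte RNA. Because the markers and exclusions chose both classes, these values are a description. At least 2-fold differences in both libraries were found upward in 185 of 3025 genes (6.12%) and downward in 303 (10%). Under TMM scaling 361 were higher and 173 lower, since the scaling moved the log2 ratios up by 0.38 in peri-infarct and 0.35 in sham. In all 3 libraries together 14 of 2118 genes were higher (0.661%) and 2 lower (0.0944%), Ctgf and Ccl2. Within infarct alone 45 of 2707 genes (1.66%) were higher and 22 (0.813%) lower, against 304 (8.9%) and 602 (17.6%) of 3415 in peri-infarct and 555 (14.6%) and 785 (20.6%) of 3808 in sham.

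The amino acid carrier Slc38a2 was at 442, 4209 and 6435 CPM in infarct, peri-infarct and sham arachnoid-like cells, against 199.5, 868 and 871 CPM in fibroblasts. Atp1b1, the beta subunit of the sodium pump, was at 86.1, 1163 and 1520 CPM, against 24.1, 93.4 and 7.64 CPM. Penk was at 225, 851 and 472 CPM, against 5.73, 121 and 0 CPM, and Igfbp5, another growth factor binding protein, at 743, 2434 and 2521 CPM, against 217, 598 and 298 CPM. These 4 genes were among the 10 highest ranked of the 14 that were higher in all 3 libraries. Igfbp5 was 3.43-fold (2.94 to 4.01), 4.07-fold (3.18 to 5.31) and 8.46-fold (6.16 to 11.9) higher in infarct, peri-infarct and sham. After thinning to 1000 UMIs Igfbp5 turned in peri-infarct, with a log2 ratio of -0.48 from 76 UMIs in arachnoid-like cells and 149 in fibroblasts.

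Ramp1, a partner of the calcitonin gene-related peptide receptor, was at 1104 and 972 CPM in peri-infarct and sham arachnoid-like cells, against 37.3 and 30.6 CPM in fibroblasts. Over all genes, 6.12% were higher in both libraries and 10% lower. Of 27 transporter genes, 12 were higher in both libraries and 11 lower, and of 10 dural fibroblast genes 6 were higher and 1 lower. Of 16 basement membrane genes, 14 were lower in both libraries and 0 higher, and under TMM scaling 13 were lower in each. A pericyte gene UMI was in 13 of 26 peri-infarct and 22 of 40 sham fibroblasts. The part of pericyte RNA in the basement membrane levels was not tested. Col4a1, a chain of collagen IV, was at 42.3 and 94.7 CPM in arachnoid-like cells, against 626 and 588 CPM in fibroblasts, and Lama1, a laminin chain, at 25.0 and 66.9 CPM, against 402 and 642 CPM. In infarct the same genes were not arranged this way, with Col4a1 at 485 CPM in arachnoid-like cells against 714 CPM in fibroblasts.

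The fibroblasts themselves carried RNA of other cells, and its part in these counts was not tested for every gene. A UMI of 1 of 4 pericyte genes was found in 6 of 37 infarct, 13 of 26 peri-infarct and 22 of 40 sham fibroblasts. Rgs5, a pericyte gene, was at 4.90, 15.4 and 36.6 CPM in arachnoid-like cells, against 39.0, 2306 and 1261 CPM in fibroblasts. Leaving out fibroblasts with a UMI of a pericyte or macrophage gene left 26, 13 and 17 of them and turned the direction of Rgs5, Higd1b, Abcc9 and Atp13a5 in both peri-infarct and sham. These 4 pericyte genes were among those used to leave cells out. The chemokine gene Ccl2, which was not, turned in both libraries as well, with no UMI left in the remaining fibroblasts of either. The counts in all 3 libraries were then 9 higher and 0 lower, against 14 and 2 with all fibroblasts.

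Between infarct core and sham brain, the number of genes that differed in arachnoid-like cells depended on the scaling and on which cells were taken. Of 3126 genes, 390 (12.5%) were at least 2-fold higher in infarct than in sham and 660 (21.1%) lower, and TMM scaling, which moved all log2 ratios up by 0.52, gave 935 higher and 395 lower. RNA quality differed as well: the nuclear RNA Malat1 was 0.807% of UMIs in infarct, 3.06% in peri-infarct and 4.77% in sham arachnoid-like cells, and the median mitochondrial share was 2.60%, 5.88% and 4.75%. Its part in the differences was not tested. The makeup of the class moved with it, since 12 of 60 infarct cells held Slc47a1, against 66 of 99 sham cells. Arachnoid-like cells with Slc47a1 gave 256 higher (8.1%) and 400 lower (12.7%) of 3159. The larger set with Slc47a1 and another marker, with no exclusion, gave 173 higher (5.42%) and 282 lower (8.84%) of 3190, and 279 and 168 under TMM scaling, a shift of 0.23. That set, 144 infarct and 193 sham cells, is used for the genes below, as it holds more cells with Slc47a1. Even there Slc47a1 was at 239 CPM in infarct, against 701 CPM in sham, at a median of 24550.0 and 11229 UMIs per cell.

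The activated fibroblast list, genes that fibroblasts switch on in scars, was higher throughout. All 9 genes considered were at least 2-fold higher in infarct, beside 5.42% of all genes. Their median log2 ratio was 2.12, against -0.08 over all genes. Spp1, the secreted phosphoprotein osteopontin, was at 2718 CPM in infarct, against 42.1 CPM in sham, a 64.5-fold difference (52.5 to 80.1). Timp1, an inhibitor of metalloproteinases, was at 1139 CPM, against 188 CPM, and Cthrc1, a secreted protein of scar fibroblasts, at 507 CPM, against 12.8 CPM. The others were Acta2, Col12a1, Lox, Loxl1, Mmp14 and Tagln, and all 9 were called under TMM scaling as well. Under the full rule, 10 of 11 genes of the list were higher in the 60 infarct cells, beside 12.5% of all genes, with a median log2 ratio of 2.40.

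Collagens were higher for 7 of 14 genes and lower for 2, beside 5.42% higher and 8.84% lower over all genes. Col1a1 was at 3220 CPM in infarct cells with Slc47a1, against 887 CPM in sham (3.63-fold, 3.46 to 3.81), and Col3a1 at 2373 CPM, against 247 CPM (9.59-fold, 8.79 to 10.5). The lower ones were Col23a1 and Col25a1, which encode membrane collagens. The same transcripts were also higher in infarct cells of other types: Col1a1 was at 1855 CPM in infarct endothelial cells and 3320 CPM in Kcnj8 cells, against 49.4 and 25.8 CPM in sham, and Spp1 at 1417 and 15898 CPM, against 1.90 and 7.34 CPM. Brain fibroblasts held Col1a1 at 9503 CPM in infarct, against 1062 CPM in sham, a wider difference than in the cells with Slc47a1. Thinned to 1000 UMIs, Col1a1 was in 72.2% of infarct cells with Slc47a1, against 35.8% of sham cells, and in 11.8% of infarct endothelial cells, against 1.73% of sham ones. The part of free RNA in the infarct levels was not tested.

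Transporter genes were lower in the infarct. Of 14 considered, 11 were at least 2-fold lower and 0 higher, with a median log2 ratio of -1.37, and 8 were lower under TMM scaling. Under the full rule all 21 considered were lower, with a median log2 ratio of -2.76, or -2.25 under TMM scaling. The share of all genes that were lower was 8.84% in the larger set and 21.1% under the full rule. Slc38a2 was at 1533 CPM in infarct, against 8255 CPM in sham, a ratio of 0.186 (0.18 to 0.191). Atp1b1 was at 613 CPM, against 1961 CPM, Slc4a10 at 319 CPM, against 946 CPM, and Abcb1a at 170.2 CPM, against 447 CPM. Cdh1 was at 16.8 CPM, against 105 CPM, while Cldn11 was at 307 CPM, against 339 CPM, a ratio of 0.906 (0.826 to 0.995). The Wnt enhancer Rspo3 was at 352 CPM, against 1137 CPM, and the growth factor Bmp4 at 156 CPM, against 540 CPM.

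Mgp was at 8215 CPM in infarct, against 8666 CPM in sham. Penk was at 3322 CPM, against 854 CPM, or 3.89-fold higher (3.71 to 4.09). Of 6 cell cycle genes 5 were higher, among them Birc5, which guards chromosome division, at 140.1 CPM, against 0.458 CPM. The interferon list had 6 of 14 genes higher and 0 lower, with Ifitm3, an antiviral membrane protein, at 2515 CPM, against 719 CPM. For both lists, the shares over all genes were 5.42% higher and 8.84% lower. In the class under the full rule the interferon list had 3 of 11 higher and 1 lower, beside 12.5% and 21.1% of all genes. The median of the list turned from -0.31 to 0.20 under TMM scaling.

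Fewer genes differed between peri-infarct and sham, by a count that moved with the settings. Of 3257 genes in the class, 26 (0.798%) were at least 2-fold higher in peri-infarct and 77 (2.36%) lower, and TMM scaling gave 39 and 37. The counts were 347 and 640 after thinning, 148 and 300 with at least 3 markers, 91 and 195 with at most 5% mitochondrial UMIs, and 83 and 450 in arachnoid-like cells without Slc47a1. Fibroblasts, with 26 and 40 cells, gave 432 (11.1%) and 525 (13.5%) of 3890, at summed UMIs of 107098 in peri-infarct and 130853 in sham. In infarct, fibroblasts gave 771 (22.2%) higher and 1213 (35%) lower of 3468. In the larger set with Slc47a1, 27 (0.84%) were higher and 28 (0.871%) lower of 3214, and 49 and 13 under TMM scaling, a shift of 0.18. None of 4 activated fibroblast genes passed 2-fold, with a median log2 ratio of 0.59, against -0.06 over all genes, and 1 passed under TMM scaling. Under the full rule the median had the other sign, -0.39 over 7 genes, with Spp1 higher and the smooth muscle genes Acta2 and Tagln lower. Tagln turned to higher with at most 5% mitochondrial UMIs (log2 1.51) and with doublets left out (0.91).

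Levels of Spp1, Col3a1, Timp1, Slc38a2 and Cdh1 in peri-infarct lay between those of infarct and sham. In the larger set Spp1 was at 82.9 CPM, against 42.1 CPM in sham, Col3a1 at 448 CPM, against 247 CPM, and Timp1 at 333 CPM, against 188 CPM. Of 12 collagen genes, 0 were higher and 1 lower, Col25a1, at 72.7 CPM, against 269 CPM. The shares over all genes were 0.84% higher and 0.871% lower. The carrier Slc38a2 was at 4763 CPM, against 8255 CPM (ratio 0.577, 0.565 to 0.589). Cdh1 was at 38.6 CPM in peri-infarct, against 105 CPM in sham (ratio 0.366, 0.297 to 0.451).

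A few genes stood higher in peri-infarct than in either other library. Bche, butyrylcholinesterase, was at 95.6 CPM in infarct, 221 CPM in peri-infarct and 25.2 CPM in sham cells with Slc47a1 and another marker, 8.77-fold higher in peri-infarct than in sham (6.67 to 11.7). Cd74 was at 488, 1401 and 867 CPM, 1.62-fold higher in peri-infarct than in sham (1.53 to 1.7) and lower in infarct, at a ratio of 0.563 (0.528 to 0.6). The chemokine Cxcl12 followed another order, at 919 CPM in infarct, 567 CPM in peri-infarct and 244 CPM in sham. Xist and Ddx3y were among the highest and lowest genes of peri-infarct against sham in the class.

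**Figure D5:**
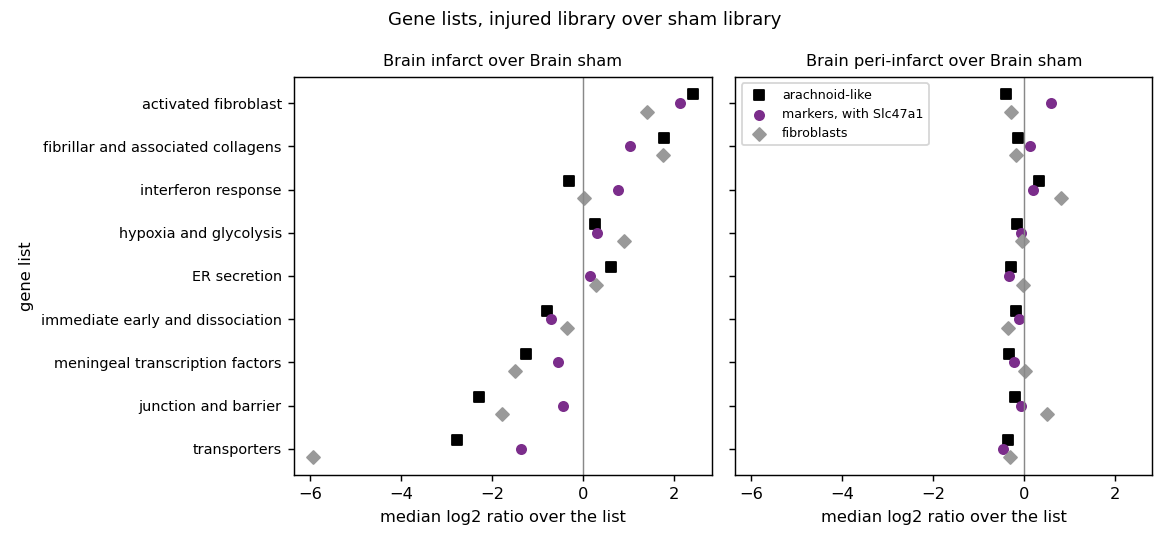
Median log2 ratio of 9 gene lists in infarct (left) and peri-infarct (right) against sham, for arachnoid-like cells (squares), all cells with Slc47a1 and another marker (circles) and fibroblasts (diamonds), 1 library per group and a line at 0. In the left panel the circles for activated fibroblast genes and transporters lie at 2.12 and -1.37, and in the right panel at 0.59 and -0.46.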

How the data were processed

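Raw counts of UMIs for 31053 genes in each cell barcode were deposited by the authors, made with Cell Ranger 3.0.2 on mm10 with Seurat 3 for later steps, per the submitters' processing notes, from 3′ 10x libraries of sorted cells, per the labels' protocols. Only barcodes called as cells were used. The members and gene lists were chosen with earlier results of these data known. Cells with at least 500 genes and at most 10% mitochondrial UMIs were kept. Scrublet's automatic threshold marked 10, 9 and 10 cells in infarct, peri-infarct and sham, under 0.5% of each library, so the highest scores were marked in the share expected (0.8% per 1000 barcodes), which took 3, 0 and 3 arachnoid-like cells; marked cells stayed in except in an alternative.

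UMIs were summed per class and library and scaled to CPM. Genes at a mean of at least 50 CPM were considered and called at 2-fold on CPM plus 1, with no test, since each group is 1 library. Exact Clopper-Pearson and Poisson-ratio 95% intervals cover counting error only, and floors are 3 UMIs over the group. TMM factors came from edgeR 4.0.16 (R 4.3.3). Python 3.11.15 with numpy 2.4.6, scipy 1.17.1, pandas 2.3.3 and scanpy 1.11.5 did the rest. The ratio step was tested on simulated data. Genes named were the 10 highest and 10 lowest per comparison, the rule's genes, Tbx18, Pdgfra, Pdgfrb, Col1a1, Col3a1, Cldn11, Cdh1, Krt18, Slc6a13, Postn and up to 6 of each of 23 gene lists by level, without genes of ribosomal proteins, mitochondria or haemoglobin or predicted genes. Others, among them the class II genes, were named after their values were seen. Alternatives added after seeing the data were the subsets by Slc47a1, cells with Slc47a1 and no exclusion, fibroblasts without pericyte or macrophage UMIs, and infarct left out. Promoter sequences were RefSeq's, GRCm38.p6. One transporter result is not reported here.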

Additional observations from a re-analysis of the deposited data

Results flagged for a closer look

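The same marker rule was applied to the heart libraries, which hold no meninges. It took 5.16% of heart infarct cells (448 of 8681) and 4.29% of heart peri-infarct cells (341 of 7956), against 0.58% of heart sham cells (79 of 13630). The rule thus also took cells outside the brain. These shares were at unlike depth, with medians of 10858, 8976.5 and 1408 UMIs per cell in heart infarct, peri-infarct and sham. Slc47a1 was in 5 of 448 heart infarct cells, 12 of 341 heart peri-infarct cells and 0 of 79 heart sham cells under the rule, and Aldh1a2 was in 439, 333 and 76 of them. After thinning to 1000 UMIs the shares were 0.185%, 0.228% and 0.343%, with heart sham the highest.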

How the results depend on the processing

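No paired analysis was possible because each group had 1 library and replicate numbers follow only the accession order. Each setting was changed alone, except that the cells with Slc47a1 and another marker change both the subset and the exclusion. The share of arachnoid-like cells in infarct, peri-infarct and sham was 0.435%, 1.37% and 1.32% with at least 3 markers, 0.838%, 3.14% and 2.11% after thinning, and 24.1%, 18.4% and 10.9% with no exclusion, and with at most 5% mitochondrial UMIs it was 2.84%, 2.48% and 2.47%. Genes higher and lower than in fibroblasts in all 3 libraries, 14 and 2, were 32 and 4 with 3 markers, 43 and 23 after thinning, 37 and 11 with no exclusion, 28 and 12 with unfiltered fibroblasts, and 27 and 31 as means over cells. They were 35 and 9 with a 20 CPM filter and 9 and 0 without fibroblasts holding pericyte or macrophage UMIs; 27 were higher with TMM, 9 were higher with 5% mitochondrial UMIs, and 1 was lower with a pseudocount of 10. Leaving out 1 library gave 15 to 185 higher and 3 to 303 lower. In peri-infarct and sham alone, 185 and 303 became 361 and 173 with TMM, 113 and 164 after thinning, 349 and 699 with 20 CPM, and 96 and 280 higher with 3 markers and with no exclusion.

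Infarct against sham, 390 higher and 660 lower, became 863 higher after thinning, 935 and 395 with TMM, 644 and 1570 with 20 CPM, 256 and 400 with Slc47a1 only, 651 higher without it, and 173 and 282 for all cells with Slc47a1 and another marker. Peri-infarct against sham, 26 and 77, became 148 and 300 with 3 markers, 347 and 640 after thinning, 91 and 195 with 5% mitochondrial UMIs, 75 and 268 with 20 CPM, and 83 and 450 without Slc47a1. The lower count was 49 with no exclusion, 37 with TMM, 48 with a pseudocount of 10, and 28 for cells with Slc47a1 and another marker.

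Signs turned for 32 values of single genes (log2). Peri-infarct over sham, Mfap4 was 3.09 with 3 markers, 1.15 thinned, 0.54 with 5% mitochondrial UMIs and 0.59 without Slc47a1, Tagln 1.51 with 5% mitochondrial UMIs and 0.91 without doublets, Krtdap -1.90 thinned and -1.69 without Slc47a1, and, without Slc47a1, Bche -4.47, Cdkn1a -1.69 and Ly6e -0.32. Infarct over sham, thinned, Slc6a13 was 0.69 and Tbx18 0.11, while Cldn11 was 0.11 with Slc47a1 and Pdgfrb -0.22 without. Over fibroblasts, thinned, Igfbp5 was -0.48, Notch3 3.90 and Pdgfrb 0.047 in peri-infarct and Lbp -0.27 in sham, and Ccl2 was 1.003 in peri-infarct with no exclusion. Without fibroblasts holding pericyte or macrophage UMIs, peri-infarct and sham gave Abcc9 0.97 and 1.82, Atp13a5 3.76 and 4.78, Ccl2 4.03 and 5.498, Higd1b 1.55 and 2.87, Rgs5 4.03 and 5.23, Cspg4 3.47 in sham and Gucy1b1 2.28 in peri-infarct. The causes were not tested. Thinning left 17 infarct cells in the class, and subsets of 12 to 33 cells carry few UMIs for genes under 50 CPM, so that differences of such genes were not detectable at this depth.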

Other observations

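In brain cells with at least 2 markers and no exclusion, Igfbp5 was at 1705, 2489 and 2489.7 CPM in infarct, peri-infarct and sham cells with Slc47a1, against 442, 45.6 and 147 CPM without. Slc22a8, a carrier of organic anions, was at 12.9, 8.71 and 16.03 CPM with Slc47a1, against 8.11, 271 and 456 CPM without, and Kcnj8 cells held it at 202, 490.4 and 474 CPM.

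Sfrp4, a secreted Wnt antagonist, was at 1113 CPM in infarct, 295 CPM in peri-infarct and 155 CPM in sham cells with Slc47a1 and another marker. Nov, a matricellular protein of the same family as Ctgf, had the reverse order, at 592, 2273 and 3741 CPM. The replication-linked histone Hist1h2ap was at 200.2, 140.7 and 11.9 CPM.

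Tbx18, whose promoter drove the Cre, was at 37.6, 66.4 and 90.9 CPM in infarct, peri-infarct and sham arachnoid-like cells, against 45.9, 205 and 413 CPM in fibroblasts.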
